A study of Rattus norvegicus with 8 samples.

Results

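Corticotropin releasing factor (CRF) and its relatives were measured in L6S1 cord tissue after chronic water avoidance (WA) stress in rats. The system was taken as 7 genes, namely the peptides Crh, Ucn, Ucn2 and Ucn3, the receptors Crhr1 and Crhr2, and the binding protein Crhbp. They were found by their symbols among the array probes that are not controls, which gave 7 of 26514 gene names and 10 of 30367 probes. Of these 10 probes, 9 passed the filter on dim probes and 8 were well above background on all 8 arrays.

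The arrays carried RNA of 4 stressed and 4 control male Wistar rats, 12 weeks old, with 1 array for each rat. Stressed rats sat daily for 10 days on a small platform standing in water, and the cord was collected 24 h after the final session. The paper describes the rats that were not stressed as handled over 10 days. The controls carried no other treatment in the labels, and neither group had a genetic change. The cord was flushed out of the spine with saline and stripped of meninges before the segments were dissected, so a sample mixes neurons, glia and vessels of whole segments. A fall in the signal of a gene in such bulk tissue can come from fewer cells of a type or from less RNA in each cell, and these cannot be told apart.

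CRF is the peptide that neurons of the hypothalamus release to drive the pituitary and adrenal response to stress. CRF and the urocortins also act as local transmitters in the brain, the spinal cord and the gut. They bind 2 receptors of the secretin class that couple mainly to Gs and cyclic AMP. CRF prefers the receptor encoded by Crhr1, urocortin 1 binds both receptors, and urocortins 2 and 3 prefer that of Crhr2. The secreted protein of Crhbp holds CRF and urocortin 1 away from the receptors. In the lumbosacral cord these peptides are studied for their part in the control of the bladder and colon and in visceral pain.

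Each level rests on a single 60-base probe, so the probes that the results turn on are shown here as they are in the files, 5′ to 3′. For Crh, Ucn and Ucn2 the final 30 bases of the probe are given. Capitals in the Ucn probe mark the hexamer AATAAA, the usual polyadenylation signal, found near the 3′ end of most mRNAs.
Crh, probe at base 1109: tgaatcaactttttcttgtaaatgtttcaa
Crh, probe at base 907: caaaacagcgttatttgtattgttcacgct
Ucn: ctctgactggatattttttAATAAAactgc
Ucn2, probe at base 319: cgctgagactggggaaggggtcataaagat
Ucn3: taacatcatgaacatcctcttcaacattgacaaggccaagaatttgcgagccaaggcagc
Crhr1: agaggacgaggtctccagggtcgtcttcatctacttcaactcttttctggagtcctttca
Crhr2, probe at base 688: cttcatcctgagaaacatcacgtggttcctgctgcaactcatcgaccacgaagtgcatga
Crhbp: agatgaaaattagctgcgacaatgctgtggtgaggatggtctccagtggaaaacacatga

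The files place these probes on the rn4 assembly. The Crh probes lie at chr2:104764253-104764312 (base 907 of the transcript) and chr2:104764051-104764110 (base 1109), both on the minus strand. The Ucn probe is at chr6:25217558-25217617 on the plus strand, starting at base 518 of its transcript. The Ucn2 probes at bases 319 and 834 are at chr8:114004791-114004850 and chr8:114005306-114005365, and the Ucn3 probe, at base 420, is at chr17:77488369-77488428, all on the plus strand. The Crhr1 probe, at base 1004, lies at chr10:93353354-93353413 on the plus strand. The Crhr2 probes are on the minus strand, at chr4:83851526-83851585 for base 688 and at chr4:83839822-83839859 for base 1567. The second of these positions spans only 38 bases, fewer than the 60 of the probe. The Crhbp probe, at base 932, is at chr2:25802015-25802074 on the minus strand. The transcript accession of all 10 probes carries the same gene symbol in current RefSeq.

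Signals are the fluorescence intensities processed by the scanner software. Relative levels are the log2 signal minus that of the 75th percentile of the same array, so a negative level is dimmer than that percentile. Probes bind with different strength, so the level of a member is compared between rats for 1 probe and is not set against that of another member. Differences are stressed minus control on this log2 scale, with the standard error (SE) and the 95% interval from limma. Adjusted p values are from limma with the Benjamini-Hochberg method over the 23677 tested probes, with a threshold of 0.1. Exact p values are two-sided over all 70 choices of 4 of the 8 arrays, which allow no value below 0.0286.

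The arrays have features that touch several results. All 8 shared 1 slide. Row 1 of it held every stressed rat and row 2 every control, so slide row and group cannot be told apart. The signal at the 75th percentile was between 1841 and 2335 in control rats and between 1751 and 1945 in stressed rats, and 22998 to 24064 probes were well above background on each array. Control replicate 2 stood apart from the other controls. Its log2 difference between 5′ and 3′ probes of the same transcript, a sign of how far labelled RNA reaches from its 3′ end, was 0.22, beside -0.30, -0.30 and -0.18 in control replicates 1, 3 and 4 and 0.09 to 0.17 in stressed rats. The 21 marker genes of neurons, motor neurons, astrocytes, oligodendrocytes, microglia and lumbosacral position with a probe were all above background on all 8 arrays. Of these markers Mog, a myelin gene of oligodendrocytes, was called between the groups, 0.90 higher in stressed rats (SE 0.18, limma, adjusted p = 0.0721). The other 3 oligodendrocyte markers differed by -0.03 to 0.27 and were not called, and the summed level of the 4 was 189 to 289.9 in control and 209.9 to 298 in stressed rats. Their part in the CRF system levels was not tested. Stressed replicate 3 was far lower than all other rats in Hoxa10, a gene of lumbosacral position, with a relative level of -3.46, where the other stressed rats had 0.52, -0.33 and 0.44 and controls 0.28 to 0.36.

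**Figure D1:**
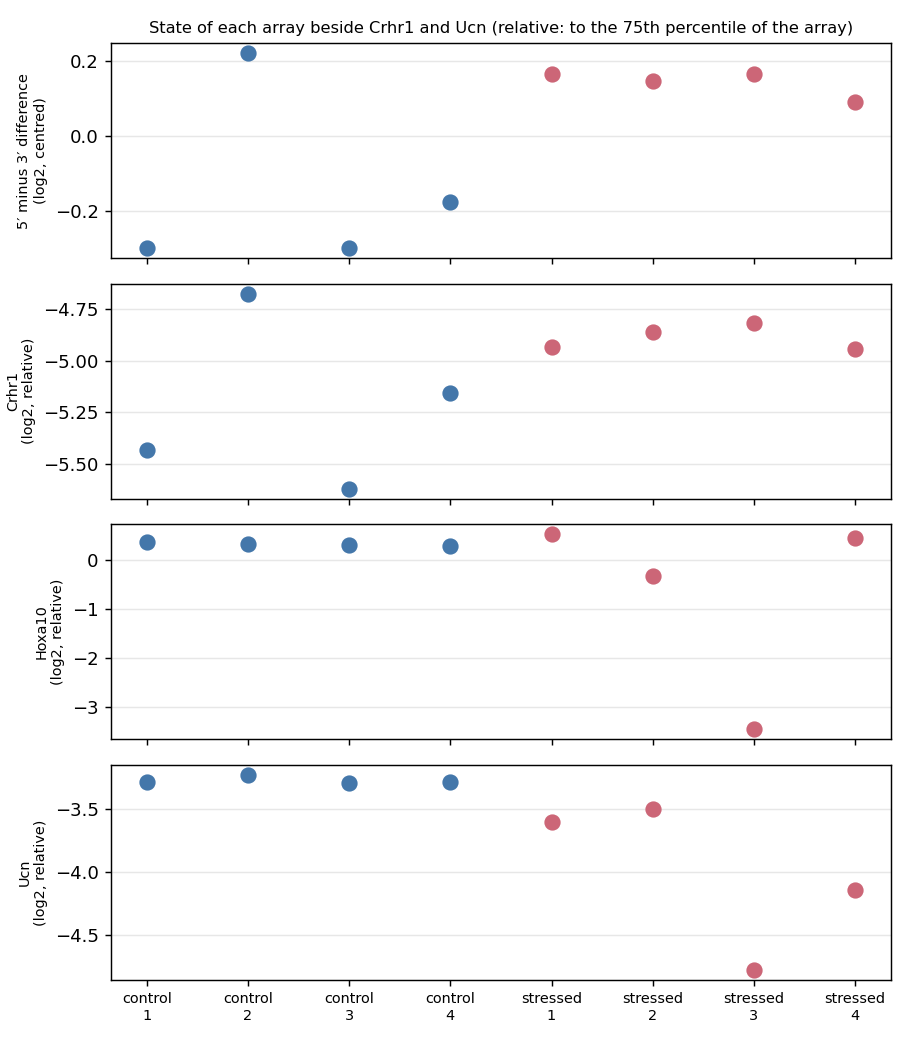
Each point is 1 rat. From top to bottom the panels give the log2 difference between 5′ and 3′ probes of 1878 transcripts, centred over the arrays, and the log2 relative levels of Crhr1, Hoxa10 and Ucn. Control replicate 2 lies with the stressed rats in the upper 2 panels, and stressed replicate 3 is the lowest rat for Hoxa10 and for Ucn.

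No CRF system probe passed the threshold between stressed and control rats (0 of 9 tested, where 3.74% of all tested probes did, with limma). At an unadjusted p below 0.05, 3 of the 9 passed, against 20.3% of all tested probes. These 3 were both Crh probes and the Ucn probe, and their signals were lower in stressed rats. Among the members the levels of all 4 stressed rats lay below those of all 4 controls only for Ucn, a pattern that 5.44% of tested probes show, and for none did they all lie above, which 6.65% of tested probes show. The median difference over all tested probes was 0.06, and it was 0.19 over the 9287 probes (39.2%) that were no brighter than the brightest member.

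**Figure D2:**
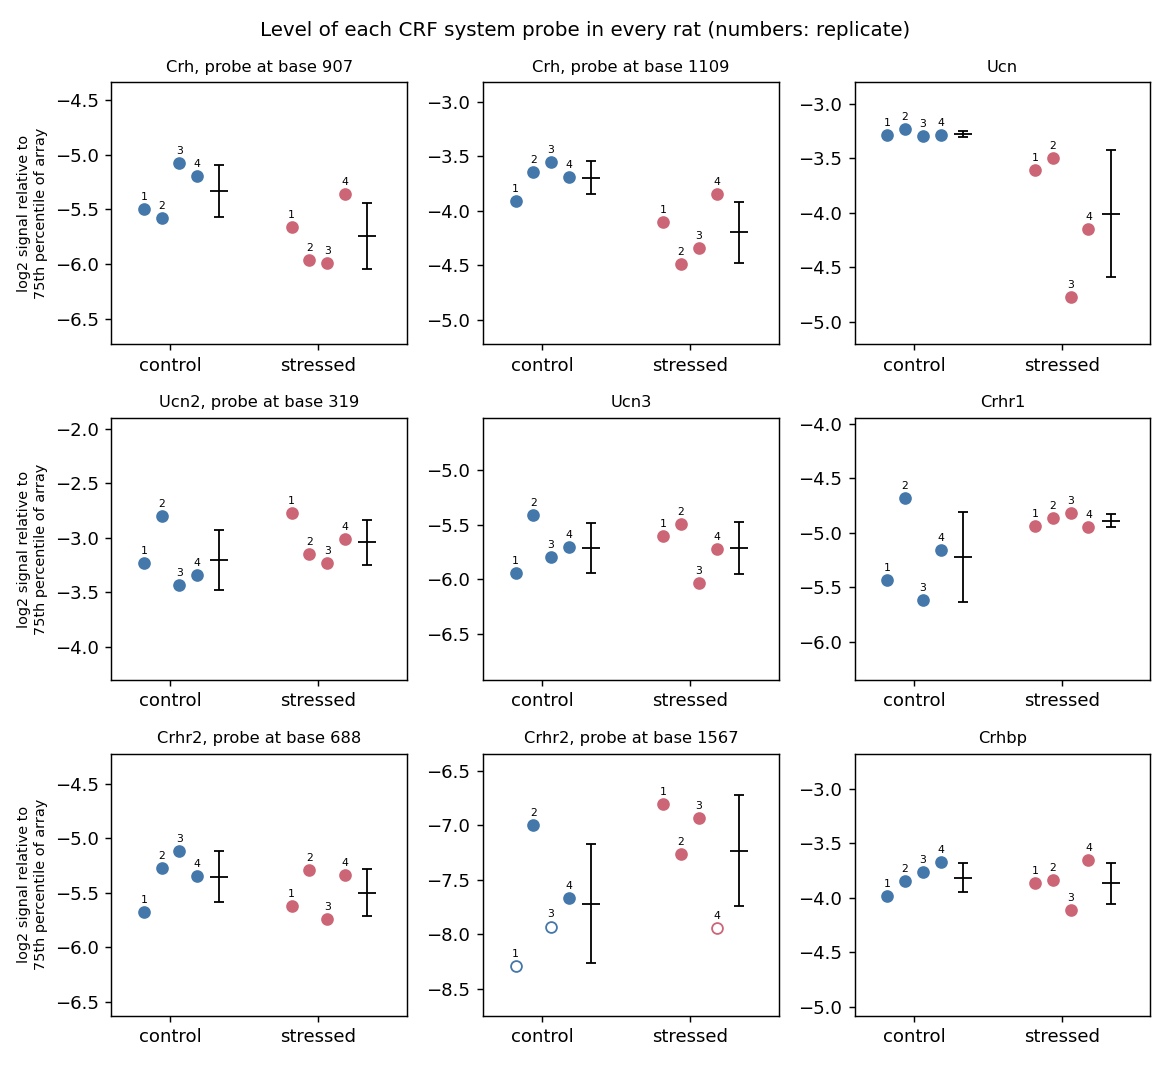
Relative log2 level of the 9 tested probes, with 1 point for each rat, its replicate number above it, and the mean ± SD (n = 4) beside each group. Open points are rats in which the probe was not well above background. All panels span the same range of log2 units, and the groups are fully separated only for Ucn.

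Crh encodes CRF itself. Its probe at base 1109, carried by 2 spots, gave signals of 143, 147, 197 and 181 in control rats 1 to 4 and of 102, 83.0, 94.9 and 135 in stressed rats 1 to 4. The same rats had relative levels of -3.91, -3.64, -3.55 and -3.69 and of -4.11, -4.49, -4.34 and -3.85. Stressed rats 1, 2 and 3 were below every control, and stressed rat 4 was above control rat 1 only, so the groups overlapped by this 1 rat. The mean difference was -0.50 (SE 0.15, 95% interval -0.85 to -0.15), which is 70.8% of the control level. It did not pass the threshold (limma, adjusted p = 0.145, and exact permutation test, p = 0.0571). Under quantile normalization it was -0.68 and passed (limma, adjusted p = 0.0928). A normexp background correction, which fits the background of each array anew and then adds an offset of 50 to each signal, gave -0.27.

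The Crh probe at base 907 is printed on 10 spots of each array, which gives the technical error within an array. Its signals were 47.8, 38.9, 68.8 and 64.2 in control rats and 34.9, 30.1, 30.5 and 47.8 in stressed rats. The relative levels were -5.49, -5.57, -5.07 and -5.19 in control rats and -5.66, -5.97, -6.00 and -5.36 in stressed rats. As at base 1109, stressed rats 1, 2 and 3 were below all controls and stressed rat 4 was not. The 10 spots of an array had an SD of 0.11 to 0.23 on the log2 scale, while the rats of a group had an SD of 0.24 (control) and 0.30 (stressed). The first is the SD of single spots, and the level of a rat is the mean of 10 spots. The spot error of that mean is thus smaller than the SD of single spots. In control rat 4 the spots ran from 56.3 to 72.7 and in stressed rat 2 from 22.4 to 36.4. The mean difference was -0.41 (SE 0.18, 95% interval -0.82 to -0.004), or 75.2% of the control level. The adjusted p from limma was 0.244 and the exact permutation test gave p = 0.114, so this difference did not pass either. With a normexp background correction it was -0.09, and with the 5′ to 3′ measure of the arrays as a covariate it was -0.21. The normexp offset of 50 lies within the range of this probe's signals, 30.1 to 68.8. Such an added constant makes log2 differences of dim signals smaller, and its part in the value of -0.09 was not tested.

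**Figure D3:**
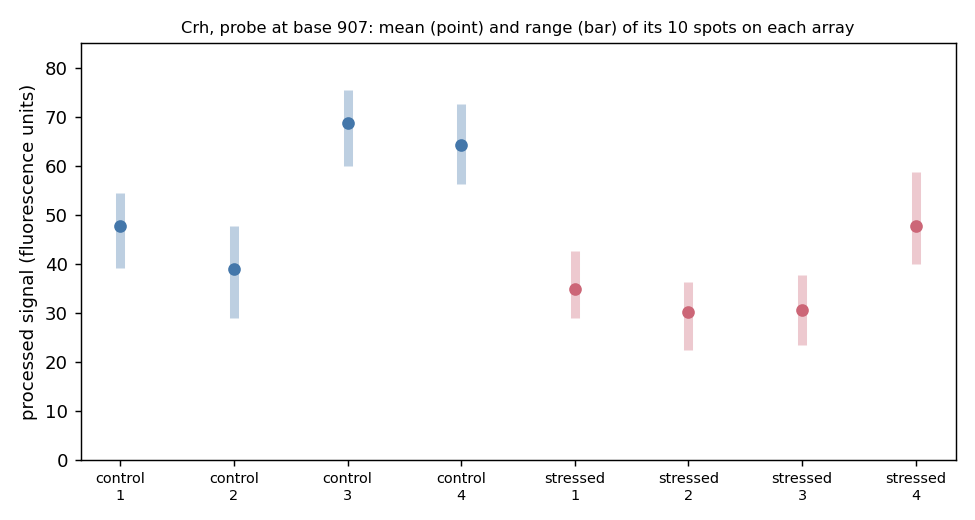
Processed signal of the Crh probe at base 907 in each rat, from 0 on a linear axis. Points are the mean and bars the range of the 10 spots of the array. The spots of stressed rats 1, 2 and 3 reach no higher than 42.6, and those of control rats 3 and 4 start at 56.3. The other rats overlap. Spots run from 39.2 to 54.4 in control rat 1, 29.0 to 47.6 in control rat 2 and 39.9 to 58.7 in stressed rat 4.

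Both Crh probes read the same transcript and so are not independent evidence. They placed the rats in similar but not identical order. Control rat 2 was the lowest control at base 907 and the second highest at base 1109. Among all tested probes, the Crh differences were in the lowest 2.50% (base 907) and 1.44% (base 1109).

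Ucn encodes urocortin 1, which binds both CRF receptors. Its signals were 219, 197, 235 and 239 in control rats and 144, 165, 70.2 and 110 in stressed rats. The relative levels were -3.29, -3.23, -3.30 and -3.29 in control rats and -3.60, -3.50, -4.78 and -4.15 in stressed rats. Every stressed rat was below every control. The controls were nearly equal (SD 0.03) and the stressed rats were spread over more than 1 log2 unit (SD 0.59), with stressed rat 3 the lowest. The 2 spots of this probe differed more within single control arrays than the controls did. Their SD was 0.21 on the log2 scale in control rat 2 (177 and 217) and 0.13 in control rat 1. The near equality of the controls is thus finer than this technical error. The mean difference was -0.73 (SE 0.26, 95% interval -1.34 to -0.13), or 60.3% of the control level. It did not pass the threshold in limma (adjusted p = 0.192), and the exact permutation test gave its smallest possible value, p = 0.0286.

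Stressed replicate 3, the rat with low Hoxa10, carried much of the mean difference of Ucn. Without it the difference was -0.47 (limma, adjusted p = 0.270). The other stressed rats were still below every control. Hoxd10, the other gene of lumbosacral position with a probe, had a relative level of 0.44 in this rat, 1.43 to 1.94 in the other stressed rats and 1.53 to 2.27 in controls. The summed level of both genes, as a ratio to the 75th percentile, was 4.15 to 6.09 in control rats and 1.45 to 5.19 in stressed rats. The part of this rat's tissue in its Ucn level was not tested. A normexp background correction gave a difference of -0.43 over all rats.

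The region before the Ucn start site is shown because it is the only one of the members' promoters in the RefSeq table that holds the cyclic AMP response element TGACGTCA, the element through which CREB acts after Gs signalling. The 120 bases before the start, at chr6:30957966-30958085 on the plus strand of GRCr8, have this element in capitals.
Ucn promoter: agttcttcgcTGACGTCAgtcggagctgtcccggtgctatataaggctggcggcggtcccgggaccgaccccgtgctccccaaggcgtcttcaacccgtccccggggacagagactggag
The element begins 110 bases before the start. The letters TGACGTCA, the same on both strands, were searched in windows of 300 bases (250 before the start and 50 after it), and 612 of 33469 promoters (1.83%) hold them. The table has 7 windows for 6 of the 7 genes, and none for Crh. A match is a description of sequence and no evidence of binding in these samples.

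Ucn2 encodes urocortin 2, which prefers the receptor of Crhr2. Its probe at base 319 gave relative levels of -3.23, -2.80, -3.44 and -3.34 in control rats and -2.77, -3.15, -3.23 and -3.01 in stressed rats. Control rat 2 was far above the other controls, and 1 stressed rat was above every control. The difference of 0.16 (SE 0.16, 95% interval -0.21 to 0.53) was within the spread of the rats (limma, adjusted p = 0.580, and exact permutation test, p = 0.40). The Ucn2 probe at base 834 was not well above background on any of the 8 arrays, with signals of 3.90 to 6.27, and was not tested.

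Ucn3 encodes urocortin 3, the other peptide that prefers the receptor of Crhr2. It was close to the same in both groups. Control rats had relative levels of -5.95, -5.41, -5.80 and -5.70, and stressed rats had -5.60, -5.49, -6.04 and -5.73. The groups overlapped fully, with a difference of -0.00 (SE 0.15, 95% interval -0.35 to 0.35) (limma, adjusted p = 0.999). The interval still allows a change of that size in either direction.

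Crhr1 encodes the receptor that CRF prefers. Its signals were low, at 49.6, 71.9, 47.0 and 65.8 in control rats and 57.4, 64.2, 68.3 and 63.2 in stressed rats, though well above background on every array. The relative levels were -5.43, -4.68, -5.62 and -5.15 in control rats and -4.93, -4.86, -4.82 and -4.94 in stressed rats. The 4 stressed rats were nearly equal (SD 0.06), while the controls were spread (SD 0.41), with 3 of them below every stressed rat and control rat 2 above every stressed rat. The difference was 0.33 (SE 0.19, 95% interval -0.11 to 0.77) and did not pass the threshold (limma, adjusted p = 0.348, and exact permutation test, p = 0.171).

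The Crhr1 call turned on control replicate 2. Without this array the difference was 0.51 (limma, adjusted p = 0.0138). The exact permutation test over 3 and 4 rats gave p = 0.0286, the smallest value it allows. Control rat 2 was the only control not below every stressed rat. Its removal alone therefore separates the groups, and this exact p is no separate support. In the limma fit without this array 42.4% of all tested probes passed, and 4 of the 9 CRF system probes did. They were both Crh probes (-0.48 and -0.49, limma, adjusted p = 0.0659 and 0.0790), Crhr1 and the Crhr2 probe at base 1567 (0.73, limma, adjusted p = 0.0985). The level of Crhr1 followed the 5′ minus 3′ difference of the arrays, with control replicate 2 among the stressed rats in both. With that difference as a covariate the Crhr1 value turned to -0.11 (SE 0.10). This covariate nearly follows the group. Control replicates 1, 3 and 4 had -0.30 to -0.18, stressed rats 0.09 to 0.17, and only control replicate 2 (0.22) broke the split. The fit therefore rests largely on that array, and the covariate can take up a difference between the groups. In the same fit Crh was -0.51 (SE 0.21) at base 1109 and -0.21 (SE 0.22) at base 907, and Ucn was -0.77 (SE 0.38), none of them past the threshold. The part of labelling or RNA state in the Crhr1 level was not tested further.

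Crhr2 encodes the receptor of the urocortins. Its probe at base 688 gave relative levels of -5.68, -5.27, -5.12 and -5.34 in control rats and -5.62, -5.30, -5.74 and -5.34 in stressed rats. The groups overlapped, and the difference was -0.15 (SE 0.15, 95% interval -0.49 to 0.20) (limma, adjusted p = 0.586). The pair of spots of this probe disagreed in control rat 1, stressed rat 1 and stressed rat 3, with SDs of 0.81, 0.83 and 1.06 on the log2 scale. In stressed rat 3 they read 21.4 and 60.6, so the lowest levels of this probe are the least certain ones.

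The Crhr2 probe at base 1567 was close to background. It was well above it in 2 control and 3 stressed rats. The relative levels were -8.29, -7.00, -7.93 and -7.67 in control rats and -6.81, -7.26, -6.94 and -7.94 in stressed rats, with control rat 2 again the highest control. The difference of 0.48 (SE 0.33, 95% interval -0.28 to 1.25) did not pass (limma, adjusted p = 0.423). The probes of Crhr2 thus differed in sign, neither of them past the threshold.

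Crhbp encodes the binding protein that takes up CRF and urocortin 1. Relative levels were -3.98, -3.85, -3.76 and -3.67 in control rats and -3.86, -3.83, -4.11 and -3.65 in stressed rats. The groups overlapped from end to end. The difference was -0.05 (SE 0.12, 95% interval -0.31 to 0.22), the narrowest interval of the 9 tested probes (limma, adjusted p = 0.828).

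**Figure D4:**
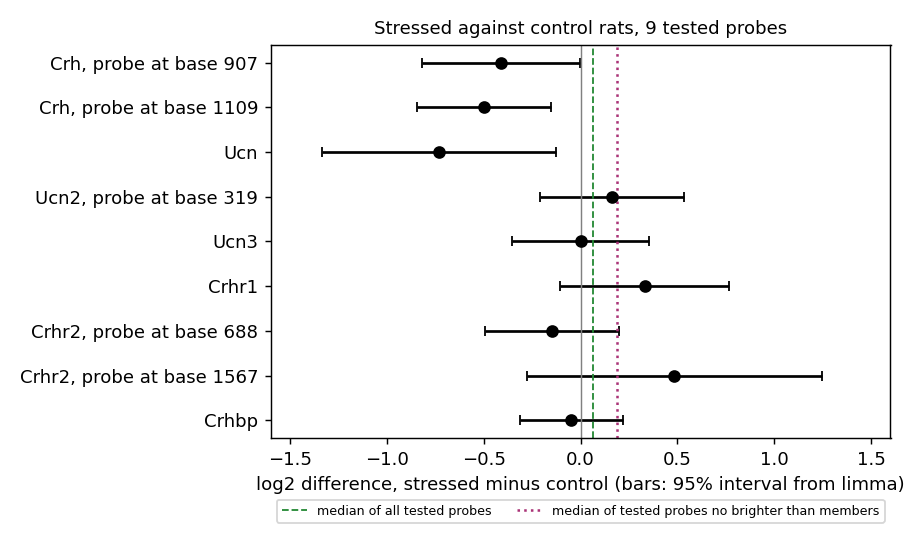
Difference in log2 level, stressed minus control, for the 9 tested probes, with 95% intervals from limma as bars. The dashed line is the median of all tested probes (0.06) and the dotted line that of tested probes no brighter than the brightest member (0.19). The intervals of both Crh probes and of Ucn lie below 0, and all other intervals include 0.

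The sign of the Crh and Ucn differences was the same under every alternative that was run. Crh at base 907 ranged from -0.60 to -0.09, Crh at base 1109 from -0.68 to -0.27 and Ucn from -0.90 to -0.43 over 19 alternatives, and each was below 0 in all 19. Not all of these could have changed the sign. No filter, the filter on all arrays, trend and robust estimation and the replicate block leave the difference as it is. The deposited table holds nearly the same values. For Ucn, whose groups do not overlap, leaving arrays out could not change the sign either. Crhr1 ranged from -0.11 to 0.55 and was above 0 in 18 of 19. With array weights, in which control replicate 2 counts least (weight 0.107), 6 of the 9 probes were called, beside 50.6% of all tested probes.

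**Figure D5:**
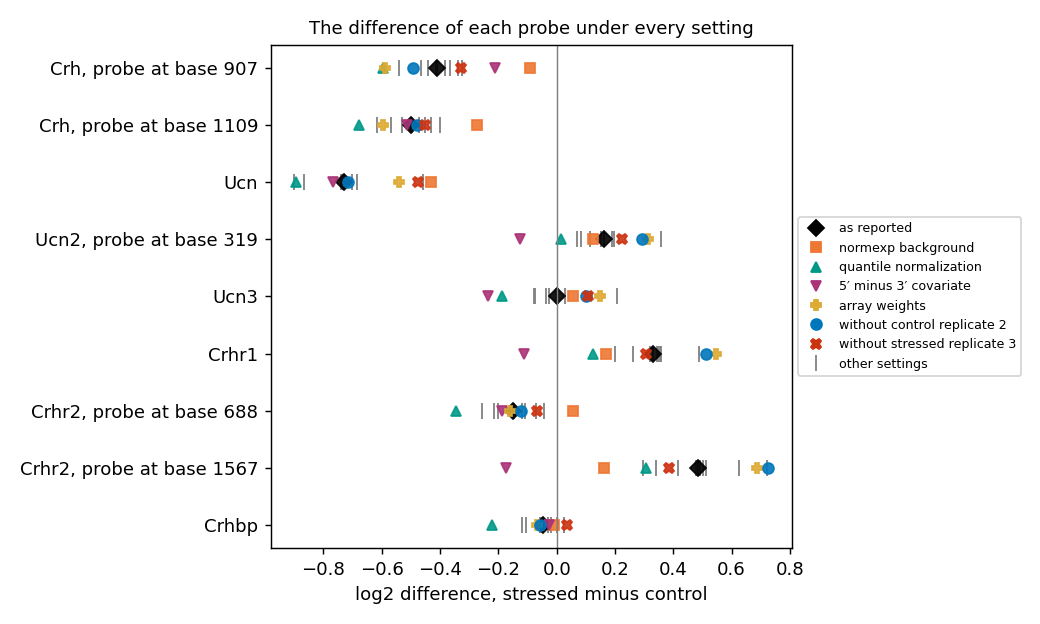
Difference in log2 level, stressed minus control, of each tested probe as reported (black diamond) and under each alternative setting (coloured marks and grey ticks). Both Crh probes and Ucn stay left of 0, Crhr1 crosses it under the 5′ minus 3′ covariate, and Ucn3 lies on both sides.

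The proteins that carry the signal of CRF receptors inside the cell were taken as a list. Of 47 genes for G proteins, adenylyl cyclases, protein kinase A, arrestins, receptor kinases and phosphodiesterases, 46 were tested and 1 was called, which is near the 3.74% of all tested probes. The median difference was 0.04, against 0.06 over all tested probes, and single genes ran from -0.48 to 1.25. The gene at 1.25 was dim, well above background in 1 control and 3 stressed rats, with an SD of 1.37 in controls, and was not called. The called gene was Gnai1, an inhibitory G protein subunit that lowers cyclic AMP. It was 0.70 higher in stressed rats (SE 0.13, limma, adjusted p = 0.0658), with a control mean of -3.11 ± 0.21 and a stressed mean of -2.41 ± 0.18 (SD, n = 4), and all stressed rats lay above all controls, as in 6.65% of tested probes. This call was lost when any 1 array other than control replicate 2 was left out (0 genes called), and without control replicate 2 the list had 26 calls, where 42.4% of all tested probes were called. At an unadjusted p below 0.05, 5 genes were higher and 6 lower, near the 20.3% of all tested probes.

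Among 13 other receptors of the secretin class, 10 were tested and 0 were called (limma), with 2 higher and 1 lower at an unadjusted p below 0.05 and a median difference of -0.12. Over all tested probes 3.74% were called and 20.3% passed at the unadjusted p, so these counts are near the general share. The 3 with the smallest p were the calcitonin receptor gene Calcr (-0.40, limma, adjusted p = 0.174), the GLP-1 receptor gene Glp1r (0.36, limma, adjusted p = 0.178) and Calcrl, which encodes the receptor of CGRP and adrenomedullin (0.99, limma, adjusted p = 0.235). Sctr, Glp2r and Ghrhr did not pass the filter on dim probes.

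Of 16 genes that act beside or after CRF in the hypothalamic, pituitary and adrenal axis, 15 had a probe, 14 were tested and 0 were called (limma), with 0 higher and 2 lower at an unadjusted p below 0.05. These counts too are near the shares over all tested probes (3.74% and 20.3%). Their median difference was -0.08. Fkbp5, a chaperone partner of the glucocorticoid receptor that glucocorticoids induce, had -0.21 (limma, adjusted p = 0.152), with every stressed rat below every control, as in 5.44% of tested probes. Hsd11b2, which inactivates corticosterone, had -0.29 (limma, adjusted p = 0.203), and Pomc, the precursor of ACTH, had -0.17 (limma, adjusted p = 0.314).

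Tissue outside the cord was measured by marker genes. Of the 4 markers of pituitary and hypothalamus, Tshb was above background on no array and Gh1 and Prl on 1 control array each. Avp, the vasopressin gene, was above it on all 8, with relative levels of -1.90 to -1.63 in control and -1.99 to -1.63 in stressed rats. The summed level of the list, nearly all of it Avp, was 0.273 to 0.333 in control and 0.261 to 0.329 in stressed rats. Markers of nerve root tissue varied much more. The 4 Schwann cell markers were above background on all arrays, with a summed level of 0.334 to 53.8 in control and 0.309 to 13.6 in stressed rats. The 4 markers of sensory ganglion neurons summed to 12.6 to 17.7 in control and 7.07 to 16.7 in stressed rats. Nearly all of this sum was Calca, with relative levels of 2.81 to 4.14, so it says little of the other genes. Scn10a and Trpv1 were dim, at -7.55 to -4.09, and Mrgprd was above background on 1 array only. None of these markers that were tested passed the threshold between groups, and the part of such tissue in the Crh and Ucn levels was not tested.

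Profiles over the 8 arrays were compared by the root mean square difference between centred log2 levels, with 12588 gene symbols. Nearest to Crh (base 1109) were Cpne7 (0.102), Tac2 (0.109), the tachykinin precursor gene, and Ldha (0.113). Nearest to Ucn were Mybpc1 (0.197), Rab12 (0.239) and Gjb5 (0.242). Nearest to Crhr1 were Rab3il1 (0.0327), Dip2c (0.0503) and Tmem103 (0.0651). For Ucn2 the nearest were Olr68, Lppr4 and Syt9 (0.0552 to 0.0622), for Ucn3 Cep164, Rgs9bp and Lcp1 (0.0522 to 0.0793), for Crhr2 Cyp2a2, Defb27 and Fam161a (0.0847 to 0.0941) and for Crhbp Mtor, Fgf13 and Zfp13 (0.0598 to 0.0619). A member with little spread over the arrays lies near many genes, so distances are not compared between members.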

How the data were processed

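Rat Agilent 1-colour arrays were used, 4 of stressed and 4 of control animals. The authors deposited intensity values for each spot from Feature Extraction 10.7.3.1, background-subtracted and detrended within each array, and a table of the same values that differs by at most 0.05. No normalization between arrays was found. The methods name dChip and no test, and 0.1 is the wider of the FDR thresholds the study applied to its mRNA arrays.

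The 58717 spots that are not controls were used. Outlier spots were set to missing, the 75th percentile of an array was subtracted from its log2 signals, and repeated spots were averaged. To be tested, a probe had to be well above background, on at least 0.5 of its spots, on at least 4 of 8 arrays, which left 23677 of 30367 probes. The lmFit and eBayes functions of limma 3.58.1, run under R 4.3.3, gave two-sided p values with the Benjamini-Hochberg method, with no covariate. On simulated data with 200 of 23677 probes changed between stressed and control arrays, a change of 1 log2 unit was recovered in 71% and a change of 0.5 in 16%. The simulated noise was independent for each probe, with no variation shared by the probes of an array. These rates may therefore not hold for the arrays here. The number of arrays limits the precision. P values set the difference between groups against the spread within groups. With 1 array for each rat, that spread holds differences between rats and technical differences between arrays.

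Members and lists were chosen with earlier results of these data known. The rule names all members, and of each list the called genes if 5 or fewer, or the 3 genes of smallest p where none was called, and for each member the 3 genes with the nearest profile. Hoxa10, Hoxd10, Mog, Avp, Gh1, Prl, Tshb, Calca, Scn10a, Trpv1 and Mrgprd were named after their values were seen. Each list gene is represented by its brightest tested probe.

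Alternatives were a normexp background with an offset of 50, quantile normalization, the percentile over detected probes, the deposited table, no filter, a filter on all 8 arrays, trend and robust estimation, array weights, the 5′ minus 3′ covariate (probes at least 300 bases apart), the replicate number as a block, and each array left out. Leaving out control replicate 2 and stressed replicate 3 together was chosen after seeing the data. Same-numbered rats were checked for pairing by the correlation of their deviations from group means (0.10, 0.12, -0.09 and 0.31 for numbers 1 to 4), and were not treated as paired. Promoters are of GRCr8 (RefSeq). Exons and UTRs were not analysed here, nor were the miRNA arrays.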

Additional observations from a re-analysis of the deposited data

Results flagged for a closer look

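Ucn in control replicate 2 lay apart from the other control rats. Its gap to the nearest of them was 0.834 of the range of the group, beyond the critical value of Dixon's test for 4 samples. The levels of the group ran only from -3.30 to -3.23, and control replicate 2 was the highest. The 2 spots of the probe in control replicate 2 had an SD of 0.21, wider than that range, so the gap is below the technical error. The flagged group was 1 of 18 groups of 4 rats tested, and chance flags about 1 in 20.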

How the results depend on the processing

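The alternatives moved the number of calls but not the direction of Crh and Ucn, which some of them could not change. Among all tested probes 885 were called (74.0% of them higher in stressed rats), and 215 (88.4%) were with the normexp background, 3010 (85.2%) without a filter, 1180 (58.1%) under quantile normalization, 2392 (48.5%) with the 5′ minus 3′ covariate and 11983 with array weights. Of the CRF signalling genes 2 were called under quantile normalization, 2 without a filter, 2 with trend and robust estimation, 7 with the covariate and 28 with array weights. Array weights also called 6 CRF system probes, 5 secretin class receptors and 7 genes of the stress axis, and the covariate called 1 secretin class receptor. Quantile normalization called 1 CRF system probe, Crh at base 1109 (-0.68). Array weights called Crh (-0.59 at base 907 and -0.60 at base 1109), Ucn (-0.54), Ucn2 (0.31), Crhr1 (0.55) and Crhr2 at base 1567 (0.69).

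Some differences changed sign. Ucn3 was above 0 with normexp (0.058), with the percentile of detected probes (0.028) and with array weights (0.15). Crhr2 at base 688 was 0.056 with normexp. With the covariate Ucn2 at base 319 was -0.13, Crhr1 -0.11 and Crhr2 at base 1567 -0.17. The cause of these changes was not tested.

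With arrays left out, 1 at a time or control replicate 2 and stressed replicate 3 together, calls ranged from 0 to 10038 over all probes, from 0 to 4 for CRF system probes, 0 to 26 for CRF signalling genes, 0 to 4 for secretin class receptors and 0 to 5 for the stress axis. The highest counts came without control replicate 2, alone or with stressed replicate 3. The differences ranged from -0.54 to -0.33 (Crh, base 907), -0.61 to -0.40 (Crh, base 1109), -0.90 to -0.46 (Ucn), 0.070 to 0.36 (Ucn2), -0.078 to 0.21 (Ucn3), 0.20 to 0.51 (Crhr1), -0.26 to -0.042 (Crhr2, base 688), 0.30 to 0.73 (Crhr2, base 1567) and -0.12 to 0.034 (Crhbp).

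With the replicate number as a block 0 probes and 0 CRF signalling genes were called. The numbers are not known to pair the rats. The dimmest probes, Crhr2 at base 1567 and Ucn2 at base 834, are limited by their signal over background.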
